A study of Mus musculus with 4 samples.

Results

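The MHC class II genes were followed through 4 single-cell libraries of mouse bone marrow. Members were taken by gene symbol and are 7 of the 31053 gene rows in the count matrices: H2-Aa, H2-Ab1 and H2-Eb1, Cd74, H2-DMa and H2-DMb1, and Ciita. All 7 symbols were found. Cells were sorted from mice in which the Stat5a and Stat5b genes, which encode the transcription factors STAT5A and STAT5B, were intact or floxed, and were profiled by droplet RNA sequencing with unique molecular identifiers (UMIs, tags that count single captured transcripts). Each of 4 groups is 1 library: 2 sorted populations crossed with 2 genotypes.

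The KLS sort collected blood stem and progenitor cells that carry c-Kit and Sca-1 and lack lineage markers (those of T cells, B220 of B cells, Mac-1 and Gr-1 of myeloid cells, and Ter119), from leg bones of 4 mice aged 8 to 12 weeks. The stromal sort, labelled MSC, started from collagenase-digested bone of mice aged 6 to 8 weeks and kept cells with Sca-1 and CD140a, without CD45 or CD71 and with little or no Ter119. Control mice are Vav1-Cre/+STAT5ab+/+ and knockout mice, called STAT5 KO in the plots, are Vav1-Cre/+STAT5abfl/fl, so both genotypes carry the Vav1-Cre transgene. The Vav1 promoter drives Cre in blood cells, so stromal cells of the knockout mice are not its main target. The labels name no agent, do not say whether the 4 KLS mice are a number per genotype or how mice were pooled into a library, and single mice cannot be told apart within one. With 1 library per group no test was possible, and every interval given is a 95% interval for counting error only.

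MHC class II molecules are pairs of an alpha and a beta chain that carry peptides from the endosomal pathway to the cell surface, where CD4+ T cells read them. H2-Aa and H2-Ab1 encode the pair called I-A, and H2-Eb1 encodes the beta chain of I-E. CD74, the invariant chain, escorts new class II molecules to endosomes and fills their groove, and the DM molecule, made from H2-DMa and H2-DMb1, exchanges the remnant of CD74 for peptide. Ciita encodes CIITA, the transcriptional coactivator that governs class II genes, which is recruited to promoters by factors that bind the conserved X and Y boxes. Dendritic cells, B cells and macrophages are the classical carriers of class II molecules.

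H2-DMa (chr17:34119541-34139101), H2-DMb1 (chr17:34153072-34160230), H2-Ab1 (chr17:34257689-34269419), H2-Aa (chr17:34282744-34287823, minus strand) and H2-Eb1 (chr17:34305867-34316674) lie together in the major histocompatibility complex in GENCODE on GRCm38. Ciita (chr16:10480059-10528418) and Cd74 lie on other chromosomes. All 7 are protein coding. Promoter windows from 250 bases before to 50 bases after the annotated start in RefSeq (GRCm38.p6) were read for 4 of the 7 members. The 4 are H2-Aa, H2-Eb1, H2-DMa and H2-DMb1, and the number is not a count of the members that have a RefSeq window. The windows of 2 chain genes and of 1 DM gene are shown because the chain genes and the DM genes gave different genotype ratios, described below. Capitals mark letters that match ATTGG (the core of the Y box), TGACGTCA (a CRE, as in X2 boxes) or AACTNNTGA (letters of an X box core), on either strand, so CCAAT is ATTGG read on the other strand. The motifs were chosen with the sequences in view.
H2-Aa (chr17:34287774-34288073, minus strand): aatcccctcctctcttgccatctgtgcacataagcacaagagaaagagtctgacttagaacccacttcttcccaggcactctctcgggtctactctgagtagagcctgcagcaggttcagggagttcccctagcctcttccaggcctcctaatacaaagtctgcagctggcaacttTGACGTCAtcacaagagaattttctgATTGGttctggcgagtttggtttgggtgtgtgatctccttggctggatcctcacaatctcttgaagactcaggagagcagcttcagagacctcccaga
H2-Eb1 (chr17:34305617-34305916, plus strand): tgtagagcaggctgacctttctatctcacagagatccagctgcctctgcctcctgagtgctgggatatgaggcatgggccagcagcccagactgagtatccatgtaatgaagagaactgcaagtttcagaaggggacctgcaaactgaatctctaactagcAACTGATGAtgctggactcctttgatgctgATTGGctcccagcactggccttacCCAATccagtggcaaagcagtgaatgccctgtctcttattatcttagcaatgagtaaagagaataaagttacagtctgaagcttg
H2-DMb1 (chr17:34152941-34153240, plus strand): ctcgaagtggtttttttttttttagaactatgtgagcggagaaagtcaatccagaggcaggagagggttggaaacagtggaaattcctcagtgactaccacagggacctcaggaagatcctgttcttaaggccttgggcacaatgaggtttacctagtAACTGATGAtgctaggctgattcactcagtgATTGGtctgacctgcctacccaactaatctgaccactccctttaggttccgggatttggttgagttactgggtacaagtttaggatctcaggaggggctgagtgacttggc
In H2-Eb1 the X box letters begin 89 bases before the RefSeq start and ATTGG begins 59 bases before it. In H2-DMb1 they begin 92 and 61 bases before the RefSeq start, which there lies inside the GENCODE gene given above. In H2-Aa, TGACGTCA begins 74 bases and ATTGG 48 bases before the start. Of 32851 RefSeq windows of 300 bases, 37.4% held ATTGG, 3.61% held AACTNNTGA and 1.79% held TGACGTCA. H2-DMa has a pair of windows, of which 1 held ATTGG, 198 bases before the RefSeq start, and both lie inside the GENCODE gene. The chain gene H2-Eb1 and the DM gene H2-DMb1 thus held the same motif letters at like distances from their RefSeq starts. A match is a description of letters only.

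The KLS libraries kept 3085 control and 6726 knockout cells with median totals of 15136 and 10085 UMIs, and the MSC libraries kept 577 and 374 cells with medians of 2732 and 2496. Cell barcodes were shared between libraries: 393 of KLS control, 295 of KLS knockout, 229 of MSC control and 200 of MSC knockout also occurred elsewhere. Copies with fewer UMIs than in another library were left out (388, 281, 33 and 17, in the same order). With them kept, the knockout to control log2 ratio of the chain sum in KLS cells was 0.92, as without them, and that of all class II genes but Ciita was 0.36 in KLS and -0.64 in MSC, against 0.36 and -0.60. Stat5a was at 68.5 CPM (UMIs of a gene per 1e6 UMIs of all genes) in KLS control and 6.74 CPM in KLS knockout, and Stat5b at 60.8 and 4.49 CPM. In the MSC libraries Stat5a was at 39.9 CPM in control and 55.0 CPM in the knockout, and Stat5b at 50.2 and 46.7 CPM. Kit, Ptprc (CD45) and Ly6a (Sca-1) were detected in both KLS libraries and Pdgfra (CD140a) had 0 UMIs there. In the MSC libraries Pdgfra had a UMI in 35.5% of control and 32.6% of knockout cells.

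The alpha and beta chain genes were higher in KLS knockout than in KLS control, while the DM genes were at nearly the same level. H2-Ab1, the I-A beta chain, was at 48.5 CPM (46.6 to 50.4) in the control library and 86.9 CPM (84.8 to 89.0) in the knockout library, 1.79-fold higher (1.71 to 1.88). H2-Aa, the I-A alpha chain, was at 18.9 CPM (17.7 to 20.1) and 35.7 CPM (34.4 to 37.1), 1.89-fold higher (1.75 to 2.03). H2-Eb1, the I-E beta chain, was at 10.6 CPM (9.76 to 11.6) and 24.8 CPM (23.7 to 25.9), 2.33-fold higher (2.12 to 2.57). The counting intervals of the levels did not overlap for any of these 3 genes, and the share of all genes without overlap was not computed. Summed over the 3 chain genes, the level was 78.0 CPM in the control library and 147 CPM in the knockout library, a log2 ratio of 0.92 (0.87 to 0.97).

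The remaining members differed by less. Cd74, the invariant chain gene (chr18:60803848-60812652), was at 35.2 CPM (33.6 to 36.8) in the control library and 42.1 CPM (40.6 to 43.5) in the knockout library, a log2 ratio of 0.26 (0.17 to 0.34). H2-DMa was at 130.5 CPM (127.4 to 133.7) in the control library and 129.6 CPM (127.1 to 132.2) in the knockout library, and these intervals overlap. H2-DMb1 was at 34.2 CPM (32.6 to 35.8) and 36.9 CPM (35.5 to 38.2), a log2 ratio of 0.11 (0.02 to 0.19). The DM pair together gave a log2 ratio of 0.016 (-0.024 to 0.056), so a difference of the size seen in the chain genes lies outside its counting interval. Ciita was counted with 105 UMIs in control and 194 UMIs in the knockout, 2.05 CPM (1.68 to 2.49) and 2.54 CPM (2.19 to 2.92), a log2 ratio of 0.31 (-0.04 to 0.66). At that depth the interval holds both no difference and 1.58-fold.

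A gene was called here when its CPM, with 1 CPM added, differed at least 1.5-fold between the libraries and it had at least 100 UMIs over both. By that rule 3 of the 7 members, the chain genes, were higher in KLS knockout, against 1.09% of 12074 genes, and 0 members were lower, against 2.55% of genes. Ranked from the highest ratio, H2-Eb1 stood at place 26, H2-Aa at 50 and H2-Ab1 at 57 of the 12074 genes. Cd74 stood at 1295 and H2-DMa at 6075. The median log2 ratio of the members was 0.25 with 1 CPM added, and that of all genes tested was -0.0079.

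Cells were placed in gates by genes that are not members, so that the genotypes could also be compared within cells of like markers. The stem gate (Hlf, Mecom and Procr all detected) held 12.0% of control and 4.06% of knockout cells, and the myeloid gate (high Mpo, Elane, Prtn3 and Ctsg, the granule genes) held 6.39% and 15.7%. The lymphoid gate (at least 2 UMIs of Dntt) held 33.0% and 31.0%, and cells in no gate, called multipotent here, 39.5% and 36.0%. The gates used UMI thresholds without thinning, and median totals were 15136 UMIs in control and 10085 in the knockout. The shares can therefore depend on depth, and the part of depth in them was not tested. Weighting the knockout gates to the control's shares gave a log2 ratio of 1.03 for the chain sum.

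Within each gate the chain sum was higher in the knockout, by an amount that varied between gates. It was at 107 CPM in control and 203 CPM in the knockout in the stem gate, 70.4 and 151 CPM in the multipotent gate, and 96.5 and 193 CPM in the lymphoid gate. It was at 34.8 and 93.2 CPM in the myeloid gate, 58.8 and 117 CPM in the megakaryocyte gate, 33.7 and 51.9 CPM in the erythroid gate and 55.0 and 113 CPM in cells that met several gates. The 7 log2 ratios lay between 0.63 in the erythroid gate and 1.42 in the myeloid gate, each with a counting interval above 0, and the other 5 gates gave 0.92 to 1.10. The erythroid gate, used below as a rough mark for free RNA, was thus itself higher in the knockout. The control level of the myeloid gate lay close to that of the erythroid gate. The part of free RNA in the ratios was not tested. Of the single chain genes, H2-Aa and H2-Ab1 had an interval above 0 in 6 of 7 gates, all but the erythroid gate, and H2-Eb1 in 7 of 7. For the DM sum 0 of the 7 intervals excluded 0, and the ratios ran from -0.073 to 0.33. By the calling rule all 3 chain genes were higher in the stem gate (1.64% of genes higher, 1.99% lower), the multipotent gate (1.42% and 1.46%), the lymphoid gate (1.01% and 2.31%), the myeloid gate (2.17% and 1.63%) and the mixed cells (2.11% and 3.35%). Cd74 was also higher by that rule in the multipotent and myeloid gates and the mixed cells, and in the megakaryocyte gate, where 1 cell held most of its UMIs. H2-Ab1 was the chain gene with 100 UMIs in the smallest gates: it was called higher in the megakaryocyte gate (3.60% and 2.39%) and not in the erythroid gate (2.67% and 1.41%). Members with 100 UMIs numbered 6 in the stem, multipotent and myeloid gates and in the mixed cells. They numbered 7 in the lymphoid gate, 4 in the megakaryocyte gate and 2 in the erythroid gate. Of these, 0 were lower by that rule in each gate, and members with fewer UMIs could not be called.

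**Figure D1:**
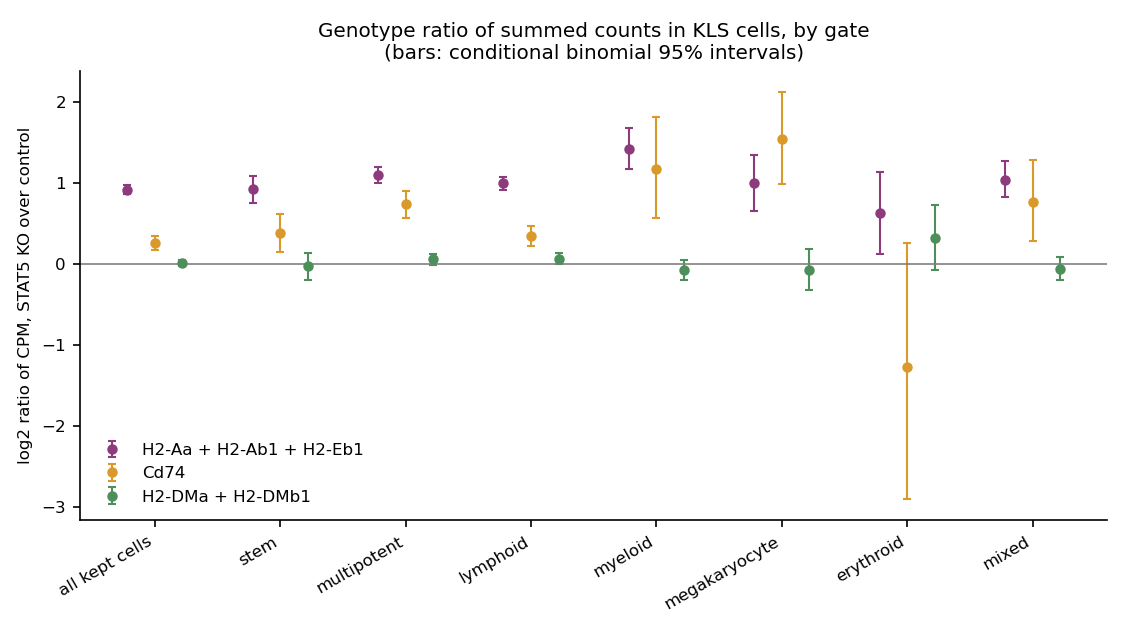
Log2 ratio of CPM, KLS knockout over KLS control, for the chain genes H2-Aa, H2-Ab1 and H2-Eb1 together, for Cd74 and for the DM genes together, in all kept cells and in each gate; bars are 95% counting intervals. The chain sum lies above 0 in all 7 gates, at 0.63 to 1.42, and the DM sum has an interval that holds 0 in each.

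Cd74 followed the chain genes less closely. It was at 70.2 CPM in control and 91.6 CPM in the knockout in the stem gate, 26.0 and 43.3 CPM in the multipotent gate and 48.5 and 61.7 CPM in the lymphoid gate. Its interval lay above 0 in 6 of the 7 gates, and in the erythroid gate it was at 7.17 and 2.96 CPM with 10 and 7 UMIs. The higher level in the megakaryocyte gate, 19.8 against 57.5 CPM, turned on 1 cell: 103 of the 130 Cd74 UMIs of that gate in the knockout were in it, and without it the level was 12.0 CPM. In the lymphoid gate of the control, 268 of 877 Cd74 UMIs were in 1 cell, and the level without it was 33.7 CPM. Without these and the other cells richest in class II transcripts, described below, the library-wide log2 ratio of Cd74 was 0.52.

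Relative to the multipotent gate of the same library, the chain sum in control was higher in the stem gate, with a log2 ratio of 0.60 (0.46 to 0.75), and in the lymphoid gate, with 0.45 (0.35 to 0.56). It was lower in the myeloid gate, with -1.02 (-1.27 to -0.77), and in the erythroid gate, with -1.06 (-1.52 to -0.64). In the knockout the same ratios were 0.43, 0.35, -0.70 and -1.54. Cd74 had a wider range, from 1.43 (1.23 to 1.64) in the stem gate to -2.12 (-2.75 to -1.55) in the myeloid gate of the control, with -1.86 (-2.93 to -0.97) in the erythroid gate. In the knockout it ran from 1.08 in the stem gate over -1.69 in the myeloid gate to -3.87 (-5.19 to -2.82) in the erythroid gate, the last from 7 UMIs.

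The DM sum of the control was at 169 CPM in the stem gate, 161 CPM in the multipotent gate, 176 CPM in the lymphoid gate and 166 CPM in the myeloid gate, and at 55.9 CPM in the erythroid gate. The log2 ratio of the myeloid to the multipotent gate was 0.039 (-0.082 to 0.16) for the DM sum in control, against the -1.02 of the chain sum. H2-Aa in that myeloid gate was at 2.76 CPM from 12 UMIs and H2-Eb1 at 0.461 CPM from 2 UMIs. In the myeloid gate of the knockout, H2-Aa was at 14.7 CPM from 202 UMIs and H2-Eb1 at 9.24 CPM from 127 UMIs. The H2-Eb1 ratio there rests on the 2 control UMIs, and its log2 interval ran from 2.44 to 7.39. Ciita, the coactivator gene, had an interval above 0 in 1 of 7 gates, the multipotent gate, at 1.56 CPM from 26 UMIs in control and 3.06 CPM from 66 UMIs in the knockout, a log2 ratio of 0.97 (0.30 to 1.69). In the stem gate it was counted with 17 and 5 UMIs.

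**Figure D2:**
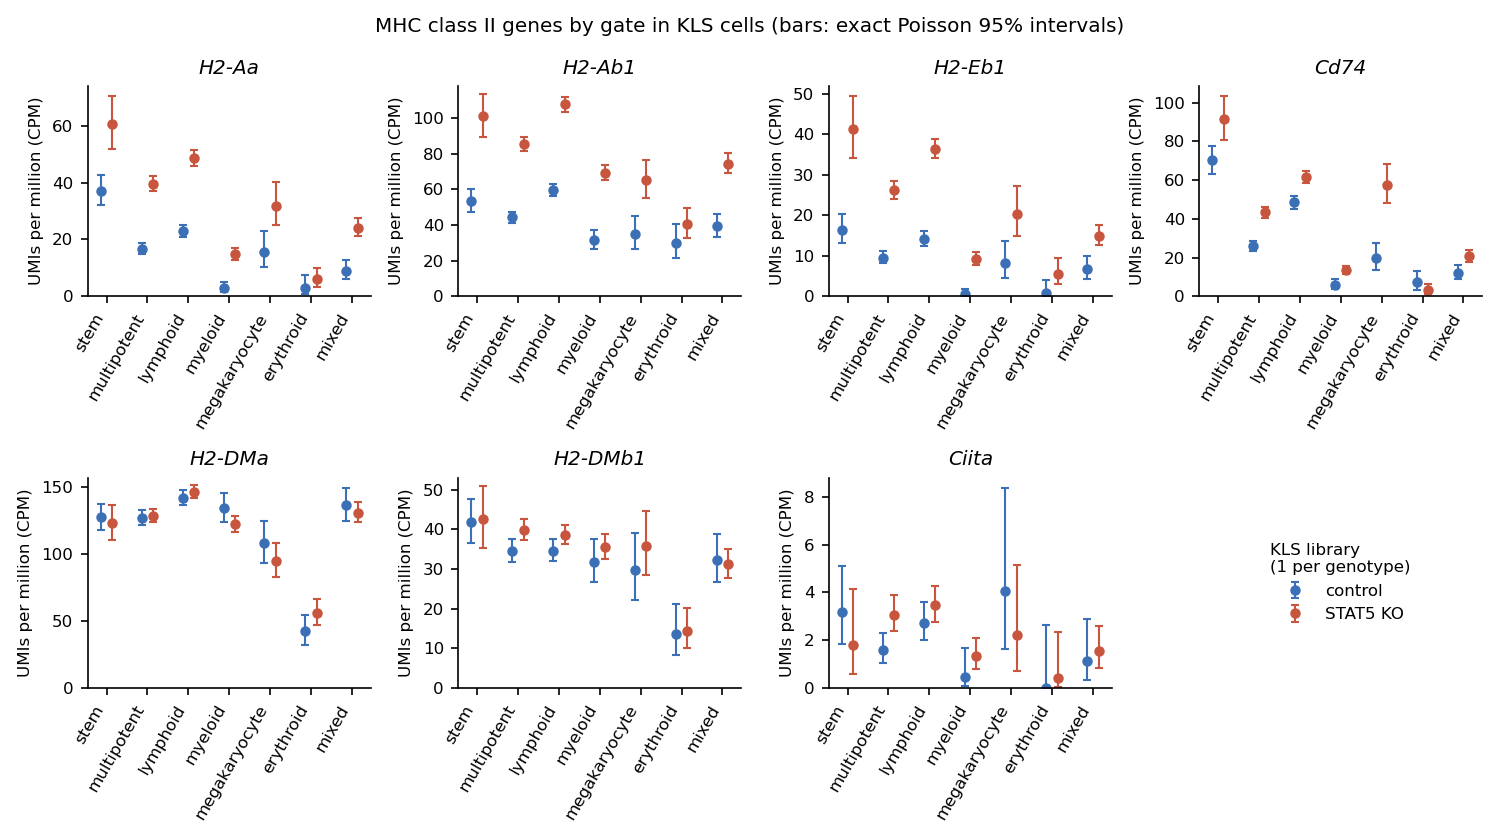
Level of each member in CPM by gate in the KLS control and KLS knockout libraries, 1 library per genotype; bars are exact Poisson 95% intervals. H2-Ab1 is at 107.6 against 59.5 CPM in the lymphoid gate, while in the erythroid gate the chain genes rest on few UMIs, with H2-Aa at 4 and 14 and H2-Eb1 at 1 and 13.

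Some gates could not be told apart by level. Over the 6 genes without Ciita, the class II sum in control was at 346 CPM in the stem gate, 321 CPM in the lymphoid gate, 258 CPM in the multipotent gate, 235 CPM in the mixed cells, 216 CPM in the megakaryocyte gate, 207 CPM in the myeloid gate and 96.7 CPM in the erythroid gate. In the knockout the values were 460, 439, 362, 296, 305, 264 and 125 CPM in the same gates. The megakaryocyte interval of the control (194 to 239 CPM) overlapped that of the myeloid gate (193 to 221 CPM) and of the mixed cells (219.8 to 252 CPM). The lymphoid gate lay below the stem gate by a log2 ratio of -0.11 (-0.18 to -0.03) in control and -0.067 (-0.15 to 0.017) in the knockout. That order is not firm: with gate thresholds 1 UMI higher the control ratio was 0.026, and with a stricter cell filter (500 genes or more, mitochondrial share of 5% or less) it was 0.038.

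As a group the chain genes were found in fewer cells than the DM genes, though single genes overlapped. After each cell was thinned to 5000 UMIs, which left out 41 shallower cells of KLS control and 905 of KLS knockout, a UMI of a chain gene was found in 27.0% of control cells (25.4 to 28.6) and 42.9% of knockout cells (41.6 to 44.2). A UMI of a DM gene was found in 55.9% (54.2 to 57.7) and 56.9% (55.6 to 58.2). H2-Ab1 was found in 20.9% of control and 33.2% of knockout cells, H2-DMa in 47.9% of both and H2-DMb1 in 16.2% and 17.5%. Cd74 was found in 9.99% and 13.1% of cells, H2-Aa in 7.82% and 14.2%, H2-Eb1 in 5.39% and 10.4%, and Ciita in 1.08% and 1.34%. Without thinning the chain shares were 51.0% and 60.9% and the DM shares 85.9% and 76.9%, at the different depths of the libraries.

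The erythroid gate was taken as a rough mark for free RNA, since red cell precursors should carry little class II RNA. Its median depths were 22118 UMIs in control and 17122 in the knockout before thinning. H2-Ab1 made up 42 of its 47 chain UMIs in control, against 2478 of 3989 in the whole library. In the knockout H2-Ab1 made up 96 of 123, against 6635 of 11257. Whether the chain UMIs of the erythroid gate are free RNA was not tested. After thinning, a chain UMI was found in 18.0% of its 50 control cells (8.58 to 31.4) and 23.3% of its 116 knockout cells (15.9 to 32.0). H2-Aa was found in 0 of 50 control cells, which allows a share of up to 6.00% of cells with a UMI, and H2-Eb1 in 0 of 50 as well. The chain share of the control's myeloid gate, 12.2%, was below the erythroid share. Its chain UMIs before thinning were 137 of H2-Ab1, 12 of H2-Aa and 2 of H2-Eb1. Whether they are expression or free RNA was not tested. The shares of the stem and lymphoid gates, both 32.8% in control and 47.0% and 50.4% in the knockout, were above the erythroid share. For a UMI of any of the 6 class II genes the share was 68.6% in control and 76.0% in the knockout, 7.37 percentage points higher (5.40 to 9.36), while without thinning it was 2.34 points lower in the shallower knockout library.

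**Figure D3:**
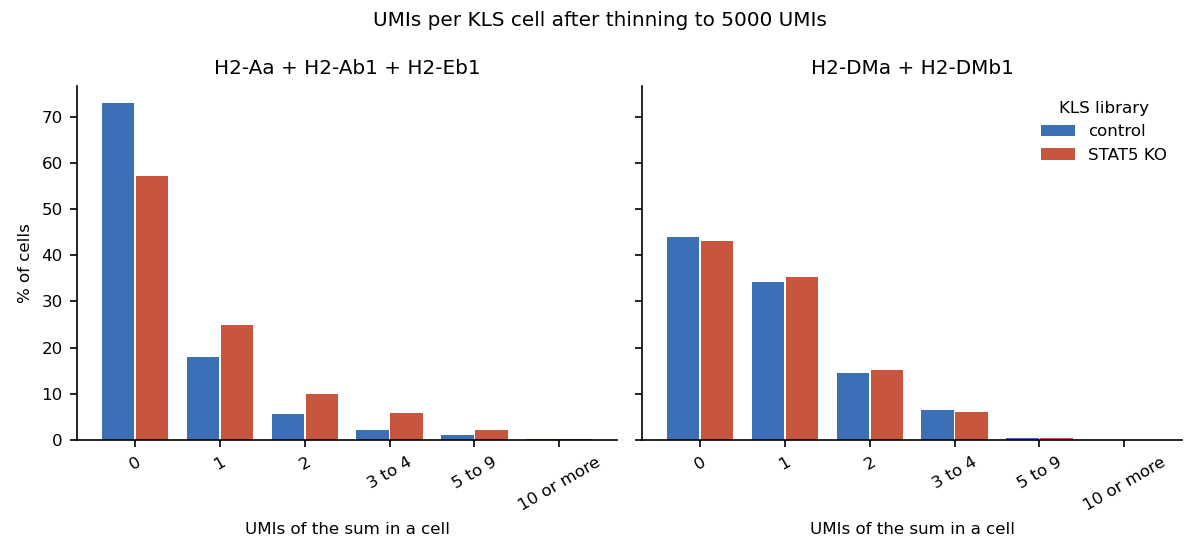
Share of KLS cells by the number of UMIs of the chain genes (left) and the DM genes (right) after thinning to 5000 UMIs per cell, in KLS control and KLS knockout. Cells with 0 chain UMIs were 73.0% of control and 57.1% of knockout cells, while cells with 0 DM UMIs were 44.1% and 43.1%.

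Cells with 1 to 9 chain UMIs were more frequent in the knockout. After thinning, cells with 1 chain UMI were 17.9% of control and 24.8% of knockout cells, cells with 2 were 5.58% and 9.96%, and cells with 3 to 4 were 2.27% and 5.76%. Cells with 5 to 9 were 1.08% and 2.13%. Cells with 10 or more were 4 of 3044 (0.131%, 0.036 to 0.336) and 12 of 5821 (0.206%, 0.107 to 0.360), and these intervals overlap. The top 1% of cells held 14.7% of the chain UMIs in control and 10.8% in the knockout, where genes with a like total had medians of 7.08% and 5.35%, and 6 of 930 and 4 of 552 of them were above the chain value. The 1% of cells richest in class II UMIs held 9.49% of these UMIs in control and 8.01% in the knockout. For single genes with a like total the median was 4.06% and 3.71%, and 1 of 194 and 0 of 159 of them were above the class II value.

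The members differed in how far they were gathered in few cells. The top 1% of cells held 37.2% of Cd74 UMIs in control and 29.1% in the knockout, where the medians of genes with a like total were 10.5% and 9.75%. For H2-Aa the shares were 30.2% and 19.0%, against 14.9% and 10.8%, and for H2-Eb1 they were 34.6% and 23.1%, against 18.8% and 13.8%. H2-Ab1 lay nearer to like genes, at 11.9% and 8.73% against 9.09% and 7.11%. H2-DMa, at 5.63% and 5.94% against 5.64% and 5.69%, and H2-DMb1, at 12.0% and 11.2% against 11.6% and 11.3%, were spread like other genes.

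Cells with Cd74 tended to be cells with the I-A and I-E chains. After thinning, H2-Aa was found in 37.5% of control cells with a Cd74 UMI and 4.53% of cells without one, and in 38.5% and 10.6% in the knockout. H2-Eb1 was found in 25.7% of control cells with Cd74 and 3.14% without, and in 30.4% and 7.34% in the knockout. H2-DMa was found in 50.3% of control cells with Cd74 and 47.6% without, and in 51.7% and 47.3% in the knockout. As a description over cells of 1 library, Pearson's r between H2-Aa and Cd74 counts was 0.42 in 3044 control cells and 0.37 in 5821 knockout cells, and between H2-DMa and Cd74 it was 0.021 and 0.022.

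Cells with very high class II content were rare in every library. Cells with at least 10 class II UMIs that made up at least 50 in 10000 of their UMIs numbered 4 of 3085 in KLS control (0.130%, exact binomial 0.0353 to 0.332), 5 of 6726 in KLS knockout (0.0743%, 0.0241 to 0.173), 2 of 577 in MSC control and 0 of 374 in MSC knockout. In KLS control the lowest cell inside that limit had 51.9 and the highest cell outside 46.0 class II UMIs in 10000, and in KLS knockout 50.7 and 47.5. In KLS control 1 of these cells held 268 Cd74 UMIs, 1 H2-Aa UMI and 0 H2-Ab1 UMIs beside 1138 UMIs of Ighm and 431 of Jchain, genes of secreted antibody. In KLS knockout 1 held 103 Cd74 and 16 H2-Ab1 UMIs beside 1964 UMIs of Igkc and 244 of Jchain. The other 3 control and 4 knockout cells held 0 Jchain UMIs, and their chain genes together with Cd74 made up most of their class II UMIs, as in the control cell with 69 Cd74, 17 H2-Aa, 17 H2-Ab1 and 15 H2-Eb1 UMIs.

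The class II-rich cells were also read against marker lists of the classical class II carriers; the lineage sort removes cells with B220 or Mac-1. Over the 4 KLS control cells, 2 of 12 dendritic cell markers, 4 of 12 macrophage and monocyte markers and 8 of 12 B cell markers were detected, with Itgax, Zbtb46, Clec9a, Adgre1, Csf1r, Ebf1 and Pax5 at 0 UMIs. Per cell the B cell list summed to between 0 and 23229 CPM there, with a median of 0 CPM. The high end was in the cell with antibody genes, and in the other kept cells the median was 109 CPM. Over the 5 KLS knockout cells, 3 of 12 dendritic cell markers, 1 of 12 macrophage and monocyte markers and 6 of 12 B cell markers were detected. The B cell list ran from 0 to 224773 CPM per cell there, with a median of 483 CPM. The high end was in the cell rich in Igkc, and in the other kept cells the median was 100 CPM. Between the whole KLS libraries, 1 of 6 dendritic cell markers with 100 UMIs was at least 1.5-fold higher in the knockout and 1 was lower. Of B cell markers 1 of 5 was higher and 1 lower, and of macrophage and monocyte markers 1 of 8 was higher and 4 lower. Of all genes tested, 1.09% were higher and 2.55% lower. Igkc, the kappa antibody chain, was at 1.17 CPM in control and 141 CPM in the knockout, where 4618 of its 10743 UMIs were in 1 cell and 66 cells held any. Cd14, a monocyte receptor, was at 0.235 and 4.14 CPM, and Ccr2, a chemokine receptor, at 3.13 and 6.74 CPM. The lower ones were the B cell factor gene Ebf1, at 1.68 and 0.236 CPM, Fscn1, at 2.48 and 0.458 CPM, and C1qa, C1qb, C1qc and Vcam1. Of 6 plasmacytoid dendritic cell markers with 100 UMIs, 0 were higher and 1 was lower, Ly6d, at 2.70 and 0.301 CPM. Without the cells that held a UMI of Igkc or Cd14, which left 3071 control and 6377 knockout cells, the chain sum's log2 ratio was 0.94 (0.88 to 0.99) and that of Cd74 was 0.45 (0.36 to 0.54). The part of the other markers' cells in the class II ratios was not tested. Without the class II-rich cells the chain sum's log2 ratio between the KLS libraries was 0.93, and 3 of 7 members were still at least 1.5-fold higher.

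Other genes of the class II pathway gave counts near the background. Of 16 listed genes, 10 had at least 100 UMIs in the KLS libraries, and 0 were called higher and 0 lower, against 1.09% and 2.55% of genes. Their median log2 ratio was -0.30, with 7 of 10 counting intervals below 0. The share of all genes with such an interval was not computed. H2-Ob and H2-Oa, the beta and alpha chains of the DM inhibitor DO, were at 48.3 and 17.7 CPM in control and 38.2 and 14.2 CPM in the knockout. Ctss, the cathepsin that trims CD74, was at 21.3 CPM in control and 15.6 CPM in the knockout, and Ctsl, another endosomal protease, at 28.2 and 20.1 CPM. Cd86, a costimulatory ligand for T cells, was at 5.08 and 3.93 CPM.

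Regulators of class II transcription likewise lay near the background. Of 16 listed genes 14 had at least 100 UMIs, 0 were called in either direction against 1.09% and 2.55% of genes, and their median log2 ratio was -0.070. Rfx5, Rfxap and Rfxank, the subunits of the factor that binds the X box, were at 19.8, 33.0 and 11.8 CPM in control and 18.7, 30.7 and 10.1 CPM in the knockout. Nfya, a subunit of the factor that binds the Y box, was at 92.2 and 100 CPM. Irf1, an interferon-induced activator, was at 53.6 and 59.8 CPM, and Socs1, an inhibitor of cytokine signalling, at 10.6 and 7.29 CPM. The 21 genes of the class I pathway gave 0 calls, against the same shares of genes, with a median of 0.12. Their counting intervals lay above 0 for 12 and below 0 for 7, and the share of all genes with such intervals was not computed. Calr and Canx, chaperones of class I folding, were at 665 and 241 CPM in control and 858 and 312 CPM in the knockout, and H2-K1, a class I heavy chain, was at 1649 and 1451 CPM.

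The genes around the chain genes on the chromosome were read in the same way. Within 500 kb of the H2-Aa start, 49 genes had at least 100 UMIs, 5 of them members. Of the 44 others 0 were called higher and 0 lower, which is near the 1.09% and 2.55% of all genes, with a median log2 ratio of -0.019 and a range of -0.33 to 0.54 with 1 CPM added. The highest of them was C4b, at 0.411 CPM in control and 1.05 CPM in the knockout. Without the added CPM its log2 ratio was 1.35 (0.64 to 2.12), above those of the chain genes. On that scale H2-Ob, which starts 48.9 kb from H2-Aa on the side of H2-Ab1, was at -0.34 (-0.41 to -0.26). H2-Ab1, 30.1 kb from H2-Aa, was at 0.84 (0.78 to 0.91). Tap1, Tap2, Psmb8 and Psmb9, class I genes that lie between H2-DMb1 and H2-Ob, ran from -0.063 to 0.25. The window was chosen after the values were seen.

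**Figure D4:**
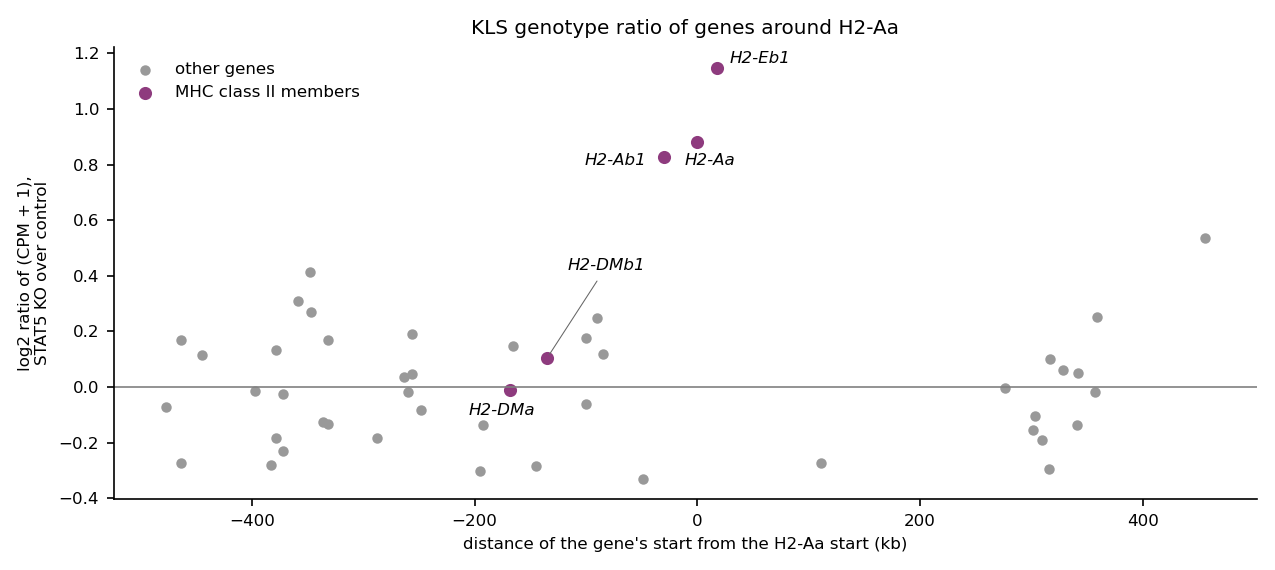
Log2 ratio of CPM with 1 CPM added, KLS knockout over KLS control, for the 49 genes within 500 kb of the H2-Aa start, by distance of each gene's start in kb. With 1 CPM added, H2-Ab1, H2-Aa and H2-Eb1 stand above all 44 other genes, whose highest value is 0.54, that of C4b. Without the added CPM the log2 ratio of C4b is 1.35, from 0.411 CPM in control and 1.05 CPM in the knockout.

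Not all knockout cells lacked Stat5 transcripts, and the chain genes were followed in both kinds of cell. A UMI of Stat5a or Stat5b was found in 454 of 6726 KLS knockout cells, and the chain sum was at 95.6 CPM (87.8 to 104) in these and 152 CPM (149 to 154) in the others, at median totals of 10195 and 10076 UMIs. In the stem gate the values were 128 and 225 CPM, in the multipotent gate 99.3 and 157 CPM, in the lymphoid gate 120 and 194 CPM and in the myeloid gate 60.5 and 94.9 CPM. Depth differed within gates, with median totals of 7845 and 9925.5 UMIs in the stem gate and 9470 and 7602 in the multipotent gate. The medians were 14694 and 10997.5 UMIs in the lymphoid gate, from 30 and 2054 cells, and 13032.5 and 12379 in the myeloid gate. The DM sum also differed over all cells, 127 against 169.7 CPM, in the stem gate, 127 against 177 CPM with a log2 ratio of 0.48 (0.14 to 0.84), and in the multipotent gate, 114 against 175 CPM, but was at 185.0 and 184.6 CPM in the lymphoid gate. In KLS control the same split gave a chain sum of 76.1 CPM in 2446 cells with and 89.5 CPM in 639 cells without a Stat5 UMI, where depth differed too, at 16751 and 9623 UMIs. In the megakaryocyte gate of the knockout the chain sum was at 57.5 CPM with and 135 CPM without a Stat5 UMI. The order was the other way in the erythroid gate, with 16 and 107 cells at 60.7 and 50.1 CPM, and in the mixed cells, at 126 and 113 CPM. This split was chosen after values were seen, and whether the Stat5 UMIs come from cells without deletion was not tested.

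Across single KLS cells the class II sum had only weak correlations with other genes. The 10 genes ranked as most alike in both libraries, out of 11014, were Ramp1, Ighm, Flt3, Gpr171, Rps24, Sox4, Dntt, Lsp1, Dusp2 and Ptpn18. Pearson's r was at most 0.18 for any of these 10, over 3085 control and 6726 knockout cells. Flt3, a cytokine receptor of lymphoid-primed progenitors, had r of 0.14 in control and 0.18 in the knockout, and Dntt, the enzyme that adds bases at antigen receptor joints, 0.13 and 0.15. Cells of 1 library share its depth and free RNA, and correlations of this size in sparse counts are given as a description.

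The stromal sort held far fewer class II UMIs, and their level was set by few cells. The class II sum was 180 UMIs in MSC control, 102.7 CPM (88.2 to 119), and 81 UMIs in MSC knockout, 67.5 CPM (53.6 to 83.9), a log2 ratio of -0.60 (-1.0 to -0.22). Of the control's UMIs 118, or 65.6%, were in 2 cells, and without class II-rich cells the ratio was 0.93 in the other direction. Both cells carried antibody genes: 1 held 80 class II UMIs with 14 of Igkc and 10 of Cd79a, and the other 38 with 722 of Ighm and 547 of Jchain. Both lay outside the stromal gate and had 0 UMIs of Ptprc and Kit. By the calling rule Cd74, at 64.5 CPM in control and 16.7 CPM in the knockout, was the 1 member with 100 UMIs and was lower, where 6.58% of genes were lower and 5.04% higher. Ciita had 0 UMIs in both libraries, which allows up to 1.71 CPM in control and 2.5 CPM in the knockout.

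Within the stromal gate (at least 5 UMIs of stromal markers) the chain genes were almost absent, at 6 UMIs in 416 control cells and 6 UMIs in 260 knockout cells, and H2-Aa had 0 UMIs in both. Cd74 had 4 and 1 UMIs. The DM sum was at 20 UMIs or 12.9 CPM (7.88 to 19.9) in control cells and 52 UMIs or 48.4 CPM (36.2 to 63.5) in knockout cells. It was almost all H2-DMb1, with 17 UMIs or 10.97 CPM (6.39 to 17.6) and 45 UMIs or 41.9 CPM (30.6 to 56.1). The H2-DMb1 intervals did not overlap, at a log2 ratio of 1.93 (1.10 to 2.83). No member reached the 100 UMIs for a call there, where 4.88% of genes were called higher and 8.21% lower.

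H2-DMb1 in the stroma lay mostly in cells rich in Col2a1, the cartilage collagen. Cells with at least 5 Col2a1 UMIs, a split chosen after the values were seen, numbered 16 in control and 36 in the knockout, and held 10 of 19 and 39 of 45 H2-DMb1 UMIs. The level was 90.5 CPM (43.4 to 166) and 115 CPM (81.7 to 157) in these cells, which overlap, and 5.48 CPM (2.51 to 10.4) and 6.98 CPM (2.56 to 15.2) in the other cells. Their median totals were 5378 and 9538 UMIs, and Cd74 had 0 UMIs in them in both libraries. The number of Col2a1-rich cells was thus higher in the library with more H2-DMb1, and the cause was not tested. Cells with hemoglobin above 2% of UMIs, 125 in control and 94 in the knockout, held 0 class II UMIs of 134510 and 72153 UMIs, which allows up to 22.3 and 41.6 CPM.

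**Figure D5:**
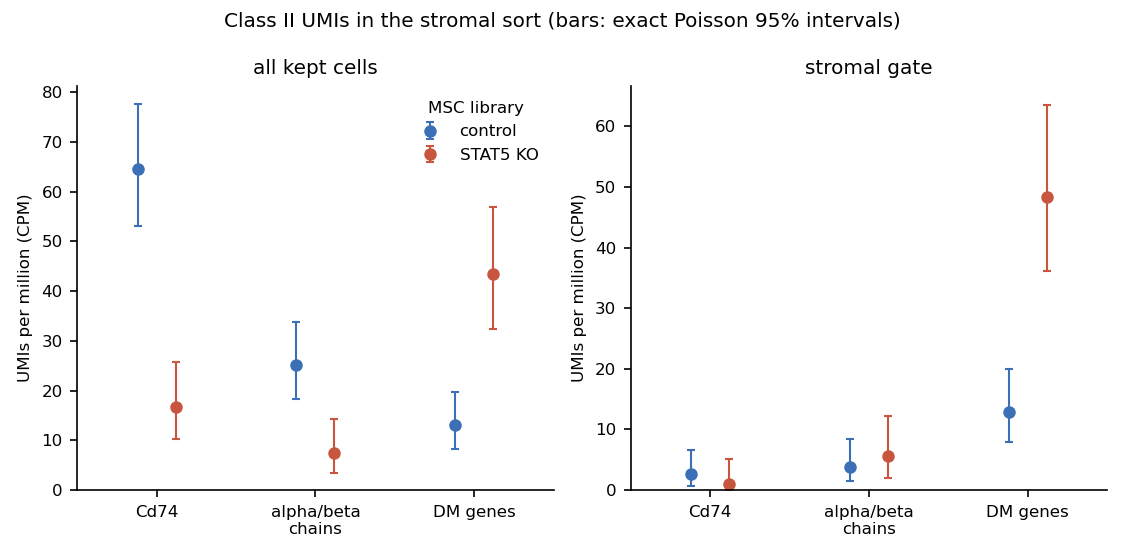
CPM of Cd74, of the chain genes together and of the DM genes together in the MSC control and MSC knockout libraries, over all kept cells (left) and in the stromal gate (right); bars are exact Poisson 95% intervals. Over all cells Cd74 is at 64.5 CPM in control and 16.7 CPM in the knockout, and in the stromal gate only the DM sum separates the libraries, at 12.9 and 48.4 CPM.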

How the data were processed

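Single-cell RNA sequencing was done by the authors on 4 libraries (10x Chromium, per the labels' protocols), 1 per group. The deposited matrices hold raw UMI counts per gene and barcode with no normalization. Cell Ranger, GRCm38 and mm10 are named in the submitters' processing notes, and version 3.1.0 of the software stands in the deposited file headers. Cell calling and the strand rule are not given in the sources used here, so overlapping and antisense genes cannot be told apart. H2-DMb1 and H2-DMb2, and H2-Eb1 and H2-Eb2, are close copies and may share reads.

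Cells with under 200 genes or over 10% mitochondrial UMIs were left out. The highest Scrublet scores (scanpy 1.11.5) were taken as doublets, a share that grows with the barcodes in a library (KLS: 112 control, 451 knockout; MSC: 4 and 1). Barcodes with more UMIs in another library were left out. No free RNA was removed. Counts were summed over cells and scaled to CPM. Sums carry exact Poisson intervals, shares Clopper-Pearson intervals, ratios conditional binomial intervals and differences of shares Newcombe intervals, computed with Python 3.11.15, numpy 2.4.6 and scipy 1.17.1. Ratios were also computed on simulated Poisson counts of whole libraries. That setting holds no differences between cells or mice, so it cannot show how the intervals hold in these data. Gates were the stem, lymphoid and myeloid gates described with the results, a megakaryocyte gate (at least 3 UMIs of Pf4) and an erythroid gate (Klf1 and Gata1), with cells of several lineage gates called mixed. The myeloid gate needed 20 in 10000 UMIs. Like-total genes had a sum within 1.25-fold. Gene identifiers matched GENCODE M21 for 30934 of 31053 rows.

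Genes named are the 7 members, genes of lists (other class II genes, regulators, class I, cell type markers), the 10 genes most alike by Pearson's r, and, chosen after values were seen, genes near H2-Aa and genes of the richest cells. The members and lists were chosen with earlier results of these data known. Alternatives covered the cell filter, doublets, shared barcodes, scaling (edgeR 4.0.16 TMM and DESeq2 1.42.0 size factors in R 4.3.3), single-cell means, gate thresholds, thinning, pseudocounts, UMI minimums, Cd74 in the sum, the richest cells and cells with Igkc or Cd14. No column of values lacked a sample.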

Additional observations from a re-analysis of the deposited data

Results flagged for a closer look

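The class II sum, the chain sum and Cd74 lay in opposite directions in the 2 sorted populations when the knockout was set against control. The log2 ratio of the class II sum was -0.60 in the MSC libraries and 0.36 in the KLS libraries. For the chain sum it was -1.74 and 0.92, from 44 and 9 UMIs in the MSC libraries. For Cd74 it was -1.95 and 0.26, from 113 and 20 UMIs. Each group is 1 library, and the difference between the populations was not tested. Of the class II UMIs of MSC control, 65.6% were in 2 cells outside the stromal gate, which held 34 of the 44 chain UMIs and 83 of the 113 Cd74 UMIs. Without them the chain sum of MSC control was 10 UMIs or 5.73 CPM, against 9 UMIs or 7.5 CPM in the knockout, and Cd74 was 30 UMIs or 17.2 CPM, against 20 UMIs or 16.7 CPM. In the stromal gate the chain sum's log2 ratio was 0.53 (-1.37 to 2.43), from 6 UMIs in each library.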

How the results depend on the processing

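The KLS log2 ratio of the class II sum was positive under all 10 alternatives, from 0.34 to 0.45; it moved beyond its counting error to 0.42 with the stricter cell filter, 0.39 without the class II-rich cells and 0.45 with gate shares matched. The count of members at least 1.5-fold higher was 3 under all 8 alternatives, and 143 genes passed in place of 132 with a minimum of 20 UMIs or none. The alternatives for single members, the chain and DM sums and the count of members were chosen after seeing the data. The MSC ratio turned to 0.41 without Cd74 in the sum, 0.93 without the class II-rich cells and 1.5 in the stromal gate, and was -1.60 as a mean over single cells. The lymphoid against stem ratio of the control turned to 0.038 with the stricter cell filter and 0.026 with higher gate thresholds. It was -0.015 without Cd74, -0.25 as a mean over cells and -0.93 with gates set after thinning. In the knockout these last 3 gave 0.035, -0.17 and -0.23, and higher thresholds -0.15. The difference in the share of cells with a class II UMI was -2.34 points without thinning. The share in the top 1% of cells was 6.41% in control and 6.22% in the knockout without Cd74, 10.6% and 9.04% with thinning to fewer UMIs, and 6.87% in the knockout without thinning. The difference in the share of class II-rich cells was 0.159 points from 20 in 10000 UMIs, against -0.055 from 50. The cause was not tested for any of these changes. With 1 library per group, intervals do not cover differences between mice. No paired analysis was possible because each group is 1 library with no replicate numbers.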
